A study of Mus musculus with 2 samples.

Results

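Keratinocytes, the epithelial cells of the epidermis and its appendages, were a small fraction of the cells that were recovered from inflamed mouse ear skin and sequenced one by one. They were chosen by their transcripts: a barcode of the matrix entered if Krt5 and Krt14 together had at least 5000 CPM (reads of a gene per 1000000 reads of the barcode), and the leukocyte gene Ptprc and the fibroblast gene Pdgfra were each under 100 CPM. Of the barcodes in the matrix, 8359 had 20% or fewer mitochondrial reads and at least 200 genes, 74 of these reached the keratin threshold, 6 were then left out for Ptprc and 3 for Pdgfra, and 65 remained. Of the 65, 52 could be given to an experimental group, among 7500 such cells in all. Because the keratins chose the members, their levels in the members are a description and not a result.

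The cells came from male BALB/c mice, 7 to 12 weeks old per the methods, that were either wild-type (WT) or Ccr2-/-, which carry a germline deletion of the receptor that brings classical monocytes into tissue. All mice had been given 300 µg of TNP-specific IgE by vein and, a day later, 10 µg of TNP-coupled ovalbumin in the skin of the right ear, which elicits IgE-dependent chronic allergic inflammation (IgE-CAI). Ears were taken on day 3 or day 5. Each of the 4 groups (genotype by day) was 1 pool of cells stained with 1 hashtag antibody, and how many mice a pool held is not given in the sources used here. A p-value therefore measures the spread between 4 pools, 2 a genotype. No unchallenged skin was analysed here, so the levels have no baseline.

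Epidermis renews itself from a basal layer, whose cells carry KRT5 and KRT14, sit on the basement membrane through integrins and collagen XVII, and divide. Cells that leave this layer switch to KRT1 and KRT10 in the spinous layer and later form the cornified envelope, while hair follicles and sebaceous glands are continuous with the same epithelium. In inflamed skin keratinocytes are known as a source of alarmins, chemokines and antimicrobial peptides, and they turn on stress keratins (KRT6, KRT16, KRT17) and small proline-rich proteins of the envelope.

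The WT day 3 pool held 17 keratinocytes, and WT day 5 held 4. There were 14 in Ccr2-/- day 3 and 17 in Ccr2-/- day 5. The pools had 1770563, 592707, 820376 and 1257933 keratinocyte reads in this order, and single cells had 3144 to 434378. A single cell gave 24.1% to 26.6% of the reads in 3 pools and 66.7% in WT day 5, so a pool value can rest on 1 cell. Counts were reads and not molecules, and intervals and floors cover counting error only. Ccr2, the deleted gene, checked the labels: leukocytes (Ptprc of at least 100 CPM) had 930 and 780 CPM of Ccr2 in the WT pools and 71.3 and 57.5 CPM in the Ccr2-/- pools, and keratinocytes had 0 to 6.75 CPM in the 4 pools.

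Of the 52 keratinocytes, 7 also carried genes of neutrophils or of endothelium, and they were set apart by thresholds chosen after the data were seen. In 2 cells of WT day 3 and 1 of WT day 5, the endothelial genes Pecam1, Cdh5, Kdr and Emcn summed to 367 to 1675 CPM, and 1 of them had 10378 CPM of the lymphatic chemokine Ccl21a. In 2 cells of Ccr2-/- day 3 and 2 of Ccr2-/- day 5, S100a8 or Il1b, both abundant in neutrophils, passed 1000 CPM, and 3 of these 4 had 23989 to 72287 CPM of the neutrophil chemokine Cxcl2. The 7 cells had a median of 2412 hashtag reads against 189 in the other 45. One of the 2 in Ccr2-/- day 5 also had 726 CPM of Pecam1. An eighth cell, in WT day 5 with 167033 reads, had 617 CPM of Ccl21a, 329 of Cldn5 and 563 of Mmrn1, but only 41.9 CPM of the 4 endothelial genes, and was kept. Summed over 4 endothelial genes, the pools had 85.3, 256, 10.97 and 11.1 CPM, and summed over 6 neutrophil genes they had 35.6, 33.7, 262 and 1527 CPM, with the pools in the same order, which is kept throughout. The calls between genotypes and days, the gates and the share are also given without these 7 cells, and the levels include them unless stated. How these reads entered the barcodes was not tested.

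Genes that the rule did not use were those of keratinocytes too. Of the marker keratins, Krt14 had reads in 52 of 52 cells and Krt5 in 49, whereas the suprabasal pair Krt1 and Krt10 had a read in 21. Perp and Dsp, which build desmosomes, had 2112, 1716, 1583 and 1965 CPM and 972, 499, 833 and 841 CPM in the 4 pools, against pool means of 2.92 and 0.199 CPM in fibroblasts (Pdgfra of at least 100 CPM). Lgals7, the galectin of stratified epithelia, had 3366, 3185, 4337 and 3248 CPM, against 2.26 CPM in fibroblasts. Trp63, the master regulator of stratified epithelium, had 63.8, 91.1, 191 and 124 CPM. At an equal depth of 10000 reads a cell, Perp was read in 92.1% of 38 keratinocytes, in 1.76% of 1984 fibroblasts and in 1.35% of 2000 leukocytes.

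Summed over pools, genes of other skin cells were present at a low level, but single cells could carry much more. The highest cell had 45652 CPM of the fibroblast list. One of the members in WT day 5, with 3220 reads, had 33851 CPM of Dcn and no read of Krt5, and was kept. The fibroblast list (Pdgfra, Col1a1, Col1a2, Col3a1, Dcn and Lum) summed to 608 to 898 CPM in the keratinocyte pools, against a mean of 63811 CPM in fibroblasts and 1399 CPM in leukocytes, and 48 of 52 keratinocytes had a read of the collagen-binding proteoglycan Dcn. The leukocyte list summed to 23.7, 21.9, 82.9 and 204 CPM, against 5878 CPM in leukocytes. The Langerhans list summed to 121, 302, 265 and 209 CPM, against 4086 CPM in leukocytes. The Merkel list summed to 3.95, 0, 13.4 and 0 CPM, the melanocyte list to at most 0.565 CPM and the T cell list to at most 2.44 CPM. Within these lists Krt18 and Krt20 of Merkel cells were at 0 reads in all 4 pools. So were Pmel, Tyrp1 and Mlana of melanocytes and Cd3e and Cd3g of T cells.

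**Figure D1:**
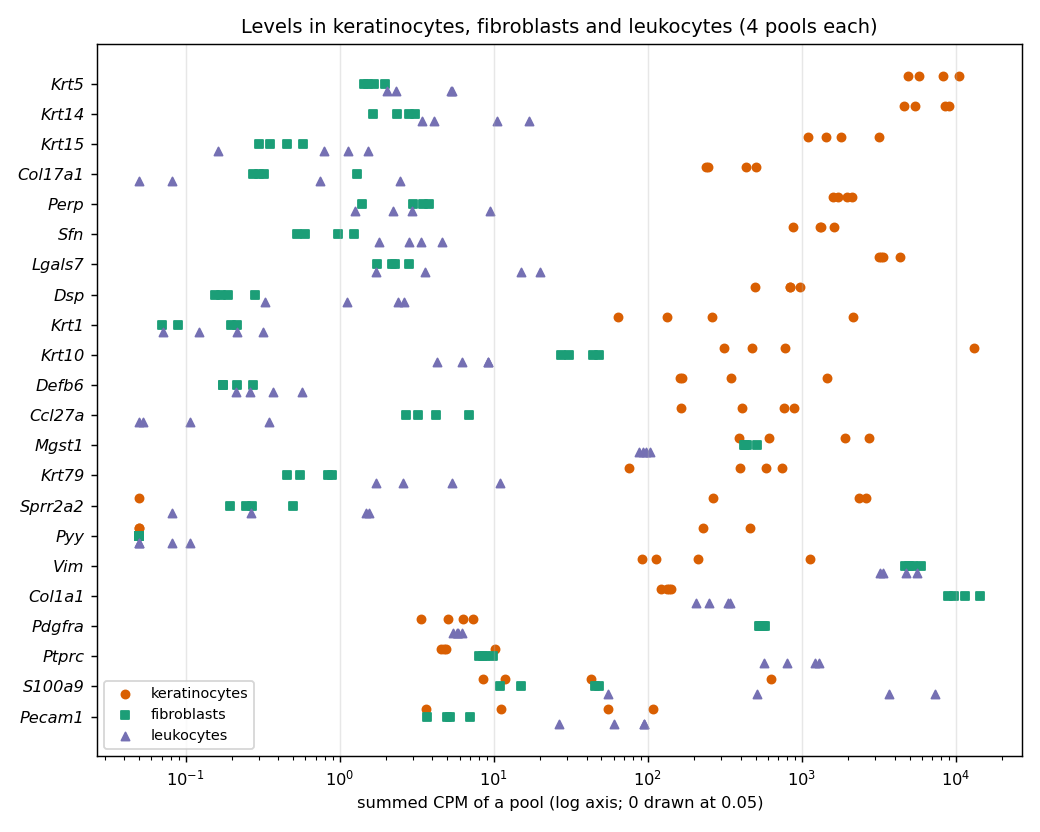
Summed CPM (log axis) of 22 genes in keratinocytes (circles), fibroblasts (squares) and leukocytes (triangles), 1 symbol per pool. Epithelial genes such as Perp and Lgals7 sit above 1000 CPM in all 4 keratinocyte pools and far lower in both other classes, whereas Sprr2a2 and Pyy are spread over the keratinocyte pools down to 0, drawn at 0.05.

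The transcripts of keratinocytes were also ranked against those of all other cells. Of 1291 genes with at least 100 CPM in keratinocytes, averaged over pools, 92 were at 10 times or more the level of all other cells and 34 at 100 times or more. The 20 with the highest ratio were Pyy, Sprr2a3, Serpinb3b, Krt1, Krt15, Krt5, Sprr2a1, Sprr2a2, Defb6, Col17a1, Fcgbp, Ckmt1, Sfn, Ly6d, Cst6, Ccl27a, Alox12e, Dapl1, Fam25c and Krt14. Krt5 and Krt14 are there by the rule, and the leading gene, Pyy, came from 4 cells. The others include the basement membrane collagen Col17a1, the beta-defensin Defb6, the cystatin protease inhibitor Cst6, the epidermal lipoxygenase Alox12e and the cell cycle regulator Sfn (stratifin). Keratinocytes, 52 of 7500 cells, held 62.1% of the reads of Ccl27a, the skin-homing T cell chemokine, and 72.8% of those of Defb6.

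Genes of the basal layer were read in all pools, as the rule made certain for Krt5 and Krt14. The other 11 genes of the basal list summed to 1845, 4518, 3601 and 2617 CPM. Krt15, a keratin of resting basal and follicle stem cells, was read in 35 of 52 cells and ran from 0 to 14923 CPM (median 522) among them. By pool it had 1103, 3177, 1798 and 1440 CPM. The integrin chains Itga6 and Itgb4, which anchor hemidesmosomes, had 71.7, 79.3, 358 and 224 CPM and 81.9, 35.4, 205 and 92.2 CPM. Krt5 itself had 4884, 5725, 10534 and 8190 CPM and Krt14 4584, 5407, 8492 and 9069 CPM, both lower in the 2 WT pools than in either Ccr2-/- pool, which is only a description because both genes were in the rule.

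Few members carried suprabasal keratins, and the rule left out cells without the basal ones. Krt1 and Krt10 together reached 5000 CPM in 4 of 52 cells (7.69%, exact 95% interval 2.14 to 18.5), 3 of them in WT day 3 and 1 in Ccr2-/- day 5. Each of the 4 had reads of Krt2, the keratin of the upper spinous layer (1761 to 34364 CPM), and of Krtdap, Calm4, Lgals7 and Perp, and none had reads of Krt79, Krt17 or Mgst1. None of the 4 was among the 7 cells. These few cells set the pool levels. Krt10 had 13026, 312.1, 475 and 776 CPM, and 1 cell held 96.4% of its reads in WT day 3. Krt1 had 263, 64.1, 134 and 2142 CPM, and 1 cell held 94.7% in Ccr2-/- day 5. The spinous list summed to 25792, 7827, 6368 and 9541 CPM, whereas the granular and cornified list reached only 177 to 579 CPM. In that last list, Flg (filaggrin), Cdsn, Klk7 and Lce1m had no read at all. The loricrin gene Lor was read in 4 cells, and Spink5, the protease inhibitor of the granular layer, in 1.

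Cells with high levels of sebaceous genes were met in all 4 pools, whereas most cells past the infundibular gate lay in WT day 3. Krt17 and Krt79, keratins of the hair follicle and its upper canal, summed to 1000 CPM or more in 9 of 52 cells, 7 of them in WT day 3. No cell of WT day 5 passed, but 12 of 52 cells lay within a factor of 2 of this threshold. The median sum was 244, 715, 93.9 and 0 CPM by pool, and the highest in WT day 5 was 880 CPM, just under the gate. Of these 9, 7 had reads of Mgst1 (median over the 9 of 4308 CPM) and 7 of Scd1 (median over the 9 of 6433 CPM). Both genes are abundant in sebocytes. Scd1 and the lipid genes Mgst1, Cidea, Far2 and Elovl3 together reached 2000 CPM in 13 of 52 cells, with 5, 2, 4 and 2 by pool. In WT day 5, 1 of the 2 was the cell of 3220 reads with 33851 CPM of Dcn. It had 8696 CPM of Mgst1 and no read of Scd1. Scd1 and Mgst1 went together across cells (rho of 0.697 over 38 cells), as did Krt79 and Mgst1 (0.687), whereas Mgst1 and Krt15 did not (-0.217). By pool Scd1 had 3937, 270, 712 and 1899 CPM. Mgst1 had 2739, 390, 616 and 1902 CPM, but fibroblasts also had a mean of 449 CPM, so a low Mgst1 level does not mark sebaceous cells. Follicle stem cell regulators were low: Sox9 had 110, 313.8, 112 and 103 CPM and Lgr6, which marks stem cells above the bulge, 36.7, 30.4, 70.7 and 54.9 CPM.

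**Figure D2:**
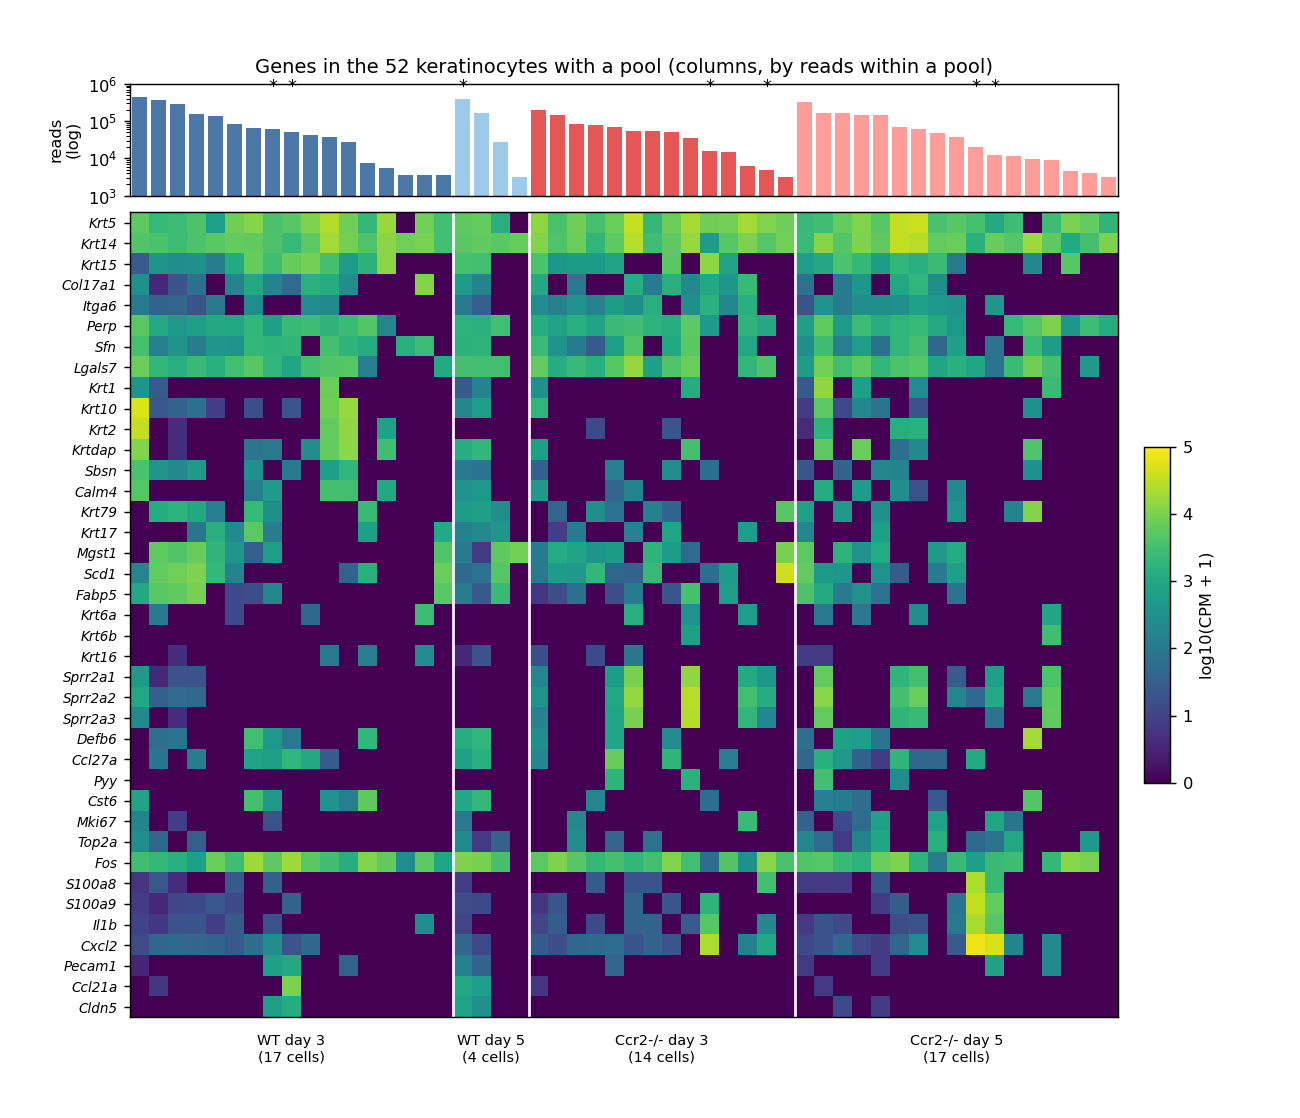
Level of 39 genes (rows, log10 of CPM + 1) in each of the 52 keratinocytes (columns), ordered by reads within a pool, with the reads of each cell as bars on a log axis above. Asterisks mark the 7 cells with neutrophil or endothelial genes. Krt14 fills the whole row, Krt1 and Krt10 are high in few cells, and the Sprr2a rows light up together.

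Dividing cells and stressed cells were both present. Mki67 and Top2a, a proliferation antigen and the topoisomerase of mitosis, together reached 50 CPM in 14 cells, with 1 of 17, 1 of 4, 3 of 14 and 9 of 17 by pool. The share was 21.7 points higher in Ccr2-/- (exact two-sided permutation over pools, p = 0.667, where 0.333 is the smallest p that 4 pools allow). Of the 14 cells, 3 were among the 7 with neutrophil or endothelial genes. Without the 7, the counts were 1 of 15, 0 of 3, 3 of 12 and 7 of 15, and the difference was 32.5 points (same exact permutation test, p = 0.333). The cycling cells were also the more deeply read ones, with a median of 70529 reads against 40170 in the others, and 7 of 52 cells lay within a factor of 2 of the threshold. Krt6a, Krt6b and Krt16 together reached 500 CPM in 1, 0, 3 and 1 cells. None of these 5 cells had a read of Krt15 or Krt10, and 4 had reads of Sprr2a2 (median over the 5 of 5745 CPM). Their median depth was 9051 reads against 51357 in the others, so an absent read says little here. Genotypes differed by 10.7 points for this stress gate (p = 0.667), by -14.1 points for the follicle gate (p = 1) and by -5.88 points for the suprabasal gate (p = 1), all by the same exact permutation test. These differences were 12.5, -15.8 and -6.67 points without the 7 cells, and none of the 7 had passed the stress, follicle or suprabasal gate. Of the 52 cells, 23 passed none of the 4 gates.

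**Figure D3:**
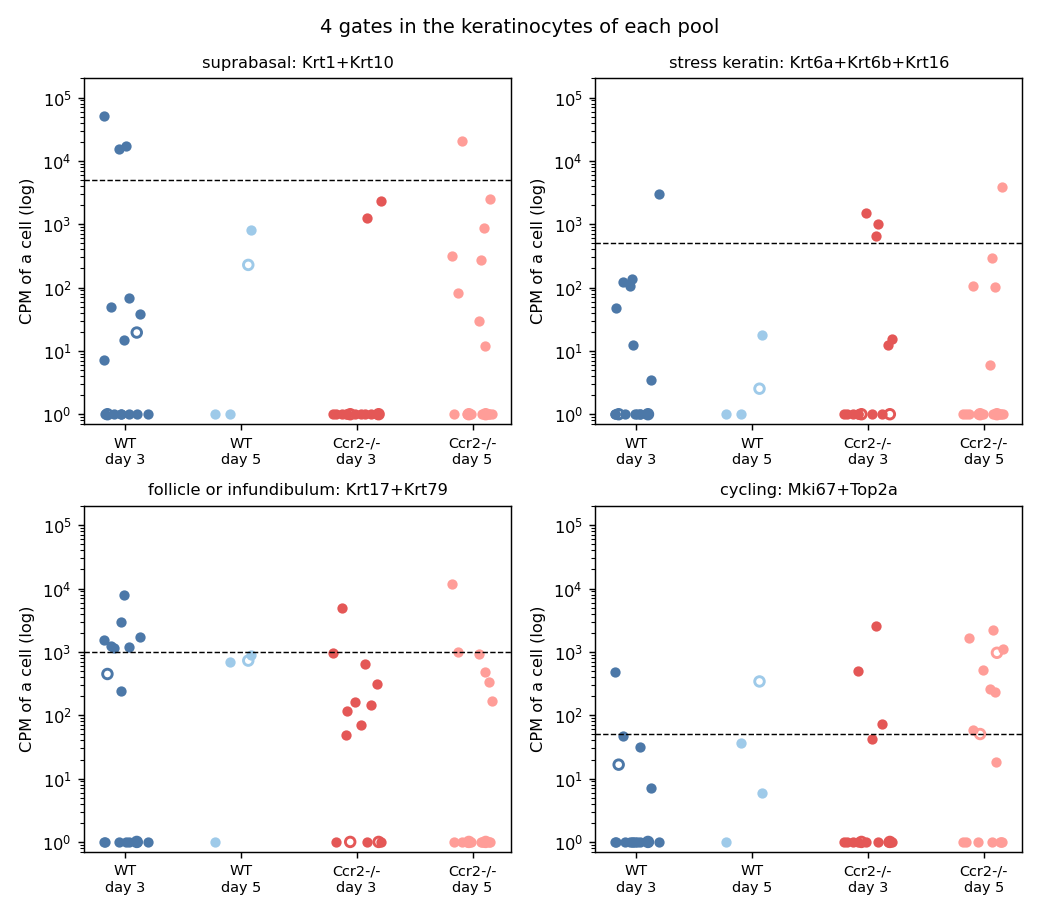
Summed CPM (log axis, 0 drawn at 1) of the genes of each gate in single keratinocytes, by pool, with the threshold as a dashed line and the 7 cells with neutrophil or endothelial genes as open circles. The cycling gate was passed by 9 of 17 cells in Ccr2-/- day 5, and the follicle gate by 7 of 17 in WT day 3.

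Among inflammatory mediators, keratinocytes stood out for few. Ccl27a had 163, 894, 762 and 410 CPM, against a mean of 4.24 CPM in fibroblasts, and was read in 22 of 52 cells. Defb6 had 167, 1454, 162 and 348 CPM, against 0.211 CPM. Cxcl1 and Ccl2, chemokines for neutrophils and monocytes, were lower here than in fibroblasts. Cxcl1 had 180 to 281 CPM in the keratinocyte pools, against a mean of 2525 CPM in fibroblasts, and Ccl2 had 70.9 to 321 CPM, against 2860 CPM. Cxcl2 had a pool mean of 556 CPM with all members, against 337 CPM in fibroblasts, and 10.1 to 34.3 CPM by pool without the 7 cells. Il33, an alarmin of the nucleus, had 28.2, 33.7, 138 and 20.7 CPM, against 340 CPM in fibroblasts. The other alarmins were barely sampled: Tslp was read in 3 of 52 cells and Il1a in 2. Il1f5, the gene of the IL-36 receptor antagonist, was read in only 3 keratinocytes, which held 98.7% of its reads in the whole data set. For the MHC class I molecules that a hashtag antibody binds, B2m had 1734, 1297, 1583 and 879 CPM, against a mean of 1846 CPM in fibroblasts and 3407 CPM in leukocytes.

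Immediate early genes summed to 12390, 31899, 18048 and 13422 CPM in keratinocytes, against means of 17938 CPM in fibroblasts and 13306 CPM in leukocytes. Fos had a read in 49 of 52 cells and 3874, 10045, 5599 and 4115 CPM by pool, against a mean of 5041 CPM in fibroblasts. The transcription factor genes Jun (1756, 3810, 2827 and 1959 CPM) and Egr1 (1108, 2974, 1600 and 1576 CPM) followed the same order, highest in WT day 5, the pool of 4 cells. Of the 14 immediate early genes, 1 had a higher sign in Ccr2-/- and 11 had a higher sign on day 5, and none passed the edgeR test of either comparison. With the 7 cells left out, 4 had a higher sign in Ccr2-/- and 7 on day 5. Of all 8770 genes, 4480 had a higher sign in Ccr2-/- and 4047 on day 5. Without the 7 cells these were 5141 and 3095 of 8312.

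Keratinocytes carried fewer hashtag reads than fibroblasts or leukocytes. Their median was 133 hashtag reads over all 65, against 431.5 in fibroblasts and 1964 in leukocytes, and 15.4% had none, against 3.95% and 0.485%. By the clones given in the methods, the hashtag antibodies also bind CD45, the product of Ptprc. Keratinocytes had under 100 CPM of Ptprc by the rule and leukocytes at least 100 CPM. How much of the gap to leukocytes goes with this was not tested. No pool could be given to 13 of 65 (20%, exact 95% interval 11.1 to 31.8), an interval that covers the 13.6% of fibroblasts and lies above the 5.96% of leukocytes, with no test run. Of the 52 with a pool, 8 were placed on fewer than 10 hashtag reads. Mitochondrial reads were a median of 7.30% in keratinocytes, against 3.30% in fibroblasts and 2.63% in leukocytes.

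Keratinocytes made up 1.05% of the cells in WT day 3 (17 of 1613, exact 95% interval 0.615 to 1.68), 0.367% in WT day 5 (4 of 1091, 0.100 to 0.936), 0.616% in Ccr2-/- day 3 (14 of 2274, 0.337 to 1.03) and 0.674% in Ccr2-/- day 5 (17 of 2522, 0.393 to 1.08). The Ccr2-/- pools lay between the WT pools. The genotypes differed by -0.0654 percentage points (exact two-sided permutation, p = 1), and by -0.0412 points without the 7 cells (same test, p = 1). Among cells under 100 CPM of Ptprc, which leaves out most leukocytes, the shares were 1.75%, 0.605%, 0.916% and 1.14%. A share of a digested suspension mixes how many keratinocytes the ear held with how many survived and were labelled, and these cannot be told apart.

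**Figure D4:**
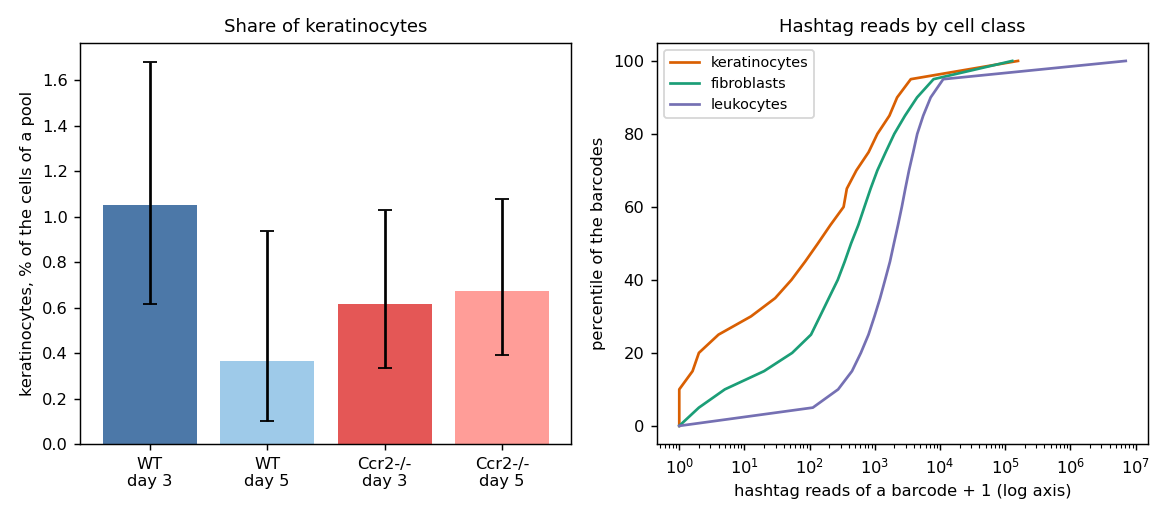
Left, the share of keratinocytes among the cells of each pool in percent, with exact 95% intervals as bars. Right, the percentile of barcodes against hashtag reads + 1 (log axis) for keratinocytes, fibroblasts and leukocytes, where the keratinocyte curve lies to the left of both others up to the 95th percentile and its median is 133 reads.

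The comparison of Ccr2-/- with WT asked whether the epithelium differed where the entry of classical monocytes is impaired. edgeR called no gene with all members. By edgeR on reads summed per pool, with day in the fit, 0 of 8770 genes passed an adjusted p of 0.05 (0% called), 206 had an unadjusted p under 0.05 (2.35%), and DESeq2 called 22 of 6559 (0.335%), 8 higher and 14 lower in Ccr2-/-. Without the 7 cells, edgeR called 11 of 8312 (0.132%), 6 higher and 5 lower: Sprr2a3, Sprr2a2, Sprr2a1, Pyy, Cst6, Endou, Krt10, Dsg1a, Krtdap, 2610528A11Rik and 6820431F20Rik. That second fit estimated an infinite prior df, which gives every gene the spread of the trend, while the first estimated 5.98. Over all genes tested the median log2 difference was 0.03 with all members and 0.36 without the 7. The genes below were not called by edgeR with all members. Most have the smallest p-values, while Sprr2a1 and Sprr2a2 are named as genes with a high ratio to other cells.

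The Sprr2a genes, which encode small proline-rich cross-linkers of the cornified envelope, were the clearest group on the Ccr2-/- side. Sprr2a1 had 123, 0, 1381 and 1141 CPM, Sprr2a2 had 266, 0, 2607 and 2336 CPM, and Sprr2a3 had 58.7, 0, 1930 and 1104 CPM. Each lay higher in both Ccr2-/- pools than in both WT pools, by a log2 difference of 5.69 ± 1.53 (SE), 5.995 ± 1.81 and 6.61 ± 1.24, with 4 pools in all (edgeR, adjusted p of 1.0, 1.0 and 0.95). The cells were few: together the genes reached 1000 CPM in 1 of 17, 0 of 4, 5 of 14 and 5 of 17 cells, with a highest cell of 1715, 0, 70427 and 25350 CPM. A single cell held 46.7% to 76.5% of the reads of each gene in the Ccr2-/- pools. At WT day 5, 0 of 592707 reads allows up to 5.06 CPM at a floor of 3 reads. Of the 7 cells, 3 had reads of this group, none of them the highest cell of its pool. Without the 7 the log2 differences were 5.18, 5.43 and 6.15, with adjusted p of 1.7e-14, 1.9e-21 and 2.1e-22 in edgeR. That fit gave every gene the spread of the trend, so these p-values leave out each gene's own spread over the pools. Sprr1a, a relative at the same locus, had 22.03, 38.8, 46.3 and 23.1 CPM, and Sprr1b and Sprr3 had no read.

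The 3 genes cannot be fully told apart by reads. They lie side by side on chromosome 3 of GRCm38, Sprr2a1 at chr3:92215799-92221911, Sprr2a2 at chr3:92215920-92256724 and Sprr2a3 at chr3:92285417-92291405, all on the plus strand, and the annotated span of Sprr2a2 covers most of Sprr2a1. Of the 50-base windows of the Sprr2a1 transcript 94.7% also occur in another Sprr2a gene, of the Sprr2a2 transcripts 96.5% and 100%, and of the Sprr2a3 transcripts 47.4% and 61.1%. Across 38 cells Sprr2a1 went with Sprr2a2 at a rho of 0.969 and Sprr2a2 with Sprr2a3 at 0.889. With so many shared windows, these correlations cannot by themselves show that the genes changed together. Their promoters are shown as a description only. The windows of 300 bases around the RefSeq start (GRCm38.p6, 250 bases before it) are at chr3:92215585-92215884, chr3:92250397-92250696 and chr3:92285054-92285353, plus strand. Capitals mark the stretch of 272 bases that all 3 share:
Sprr2a1: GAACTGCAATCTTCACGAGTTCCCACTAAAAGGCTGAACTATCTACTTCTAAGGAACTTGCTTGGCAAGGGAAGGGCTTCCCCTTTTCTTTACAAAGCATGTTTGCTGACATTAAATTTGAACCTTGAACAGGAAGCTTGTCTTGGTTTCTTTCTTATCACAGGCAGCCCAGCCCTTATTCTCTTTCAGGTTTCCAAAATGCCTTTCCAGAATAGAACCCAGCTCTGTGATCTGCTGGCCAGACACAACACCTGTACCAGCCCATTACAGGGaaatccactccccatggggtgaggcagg
Sprr2a2: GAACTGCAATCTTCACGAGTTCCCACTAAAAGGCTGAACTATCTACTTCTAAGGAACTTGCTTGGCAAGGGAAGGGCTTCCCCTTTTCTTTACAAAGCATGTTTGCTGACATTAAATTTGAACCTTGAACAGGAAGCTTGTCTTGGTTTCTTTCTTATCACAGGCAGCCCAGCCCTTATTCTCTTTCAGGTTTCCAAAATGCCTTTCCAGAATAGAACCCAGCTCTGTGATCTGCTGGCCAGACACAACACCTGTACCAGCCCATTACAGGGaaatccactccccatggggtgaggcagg
Sprr2a3: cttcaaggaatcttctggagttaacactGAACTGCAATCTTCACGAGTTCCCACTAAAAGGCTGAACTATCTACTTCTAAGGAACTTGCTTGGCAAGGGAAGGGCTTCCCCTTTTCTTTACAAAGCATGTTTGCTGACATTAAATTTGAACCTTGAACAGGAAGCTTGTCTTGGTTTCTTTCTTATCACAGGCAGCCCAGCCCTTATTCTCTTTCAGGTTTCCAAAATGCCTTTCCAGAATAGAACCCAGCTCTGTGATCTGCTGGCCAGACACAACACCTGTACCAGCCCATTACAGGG
The first 2 are identical over all 300 bases, and the shared stretch starts at base 29 of the third. Neither TGANTCA (the AP-1 motif, on both strands, in 7.81% of 32851 RefSeq promoters of this length) nor TATAAA (the TATA box, 13.6%) was found in these windows, which says only that these letters are not there.

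Pyy and Cst6 were the leading single genes beside them. Pyy, which encodes the gut hormone peptide YY, had 0, 0, 227 and 461 CPM, from 4 cells, 2 in each Ccr2-/- pool. The level in Ccr2-/- was at least 102-fold higher than WT, with WT set to a floor of 3 reads per library (edgeR, adjusted p = 0.12), and 1 cell held 67.7% and 96.7% of the reads in the Ccr2-/- pools. All 4 cells also had reads of Sprr2a2. Cst6, the cystatin that restrains proteases of cornification, ran the other way with 383, 1313, 19.5 and 76.3 CPM, a log2 difference of -4.28 ± 0.49 (SE, 4 pools, edgeR, adjusted p = 0.12). It was read in 6 of 17, 2 of 4, 2 of 14 and 5 of 17 cells, so its groups overlap by cell but not by pool, and 1 cell of Ccr2-/- day 5 had 4526 CPM. Without the 7 cells both were called (log2 difference of -4.46 for Cst6). Endou, a poly(U)-specific endoribonuclease gene, had 281, 45.6, 2.44 and 0 CPM, with 90.2% of the WT day 3 reads in 1 cell. Among further genes on the higher side, the gasdermin gene Gsdmc had 1.69, 0, 81.7 and 104 CPM, and Fcgbp, which encodes a mucin-like IgG-binding protein, had 49.1, 59.1, 374 and 250 CPM (log2 difference of 2.42 ± 0.59, edgeR, adjusted p of 1.0).

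Cxcl2 and Il1b were high in Ccr2-/- only with the 7 cells included, whereas vessel genes of WT day 5 kept a level without them. Cxcl2 had 41.2, 32.1, 500 and 1651 CPM with all members and 33.8, 10.1, 30.0 and 34.3 CPM without the 7 cells. Il1b had 10.7, 6.75, 112 and 421 CPM with and 10.9, 0, 15.005 and 10.6 CPM without them. Il1b at 1000 CPM was itself part of the rule that set the cells apart, so its drop was fixed in advance and is no result. On the WT side, Ccl21a had 302, 864, 1.22 and 0.795 CPM, in 6 cells, and the tight junction gene of vessels Cldn5 had 58.2, 624, 0 and 2.38 CPM. The lymphatic genes Mmrn1 and Lyve1 had log2 differences of -7.96 ± 1.02 and -4.72 ± 0.86 (SE, 4 pools, edgeR, adjusted p of 0.19 and 0.88). When the 7 cells were left out, Ccl21a had 522 CPM in WT day 5 and Cldn5 279 CPM, from the eighth cell, and Mmrn1 had 476 CPM, against 395 CPM with them. In WT day 3 the same genes then had at most 1.21 CPM.

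**Figure D5:**
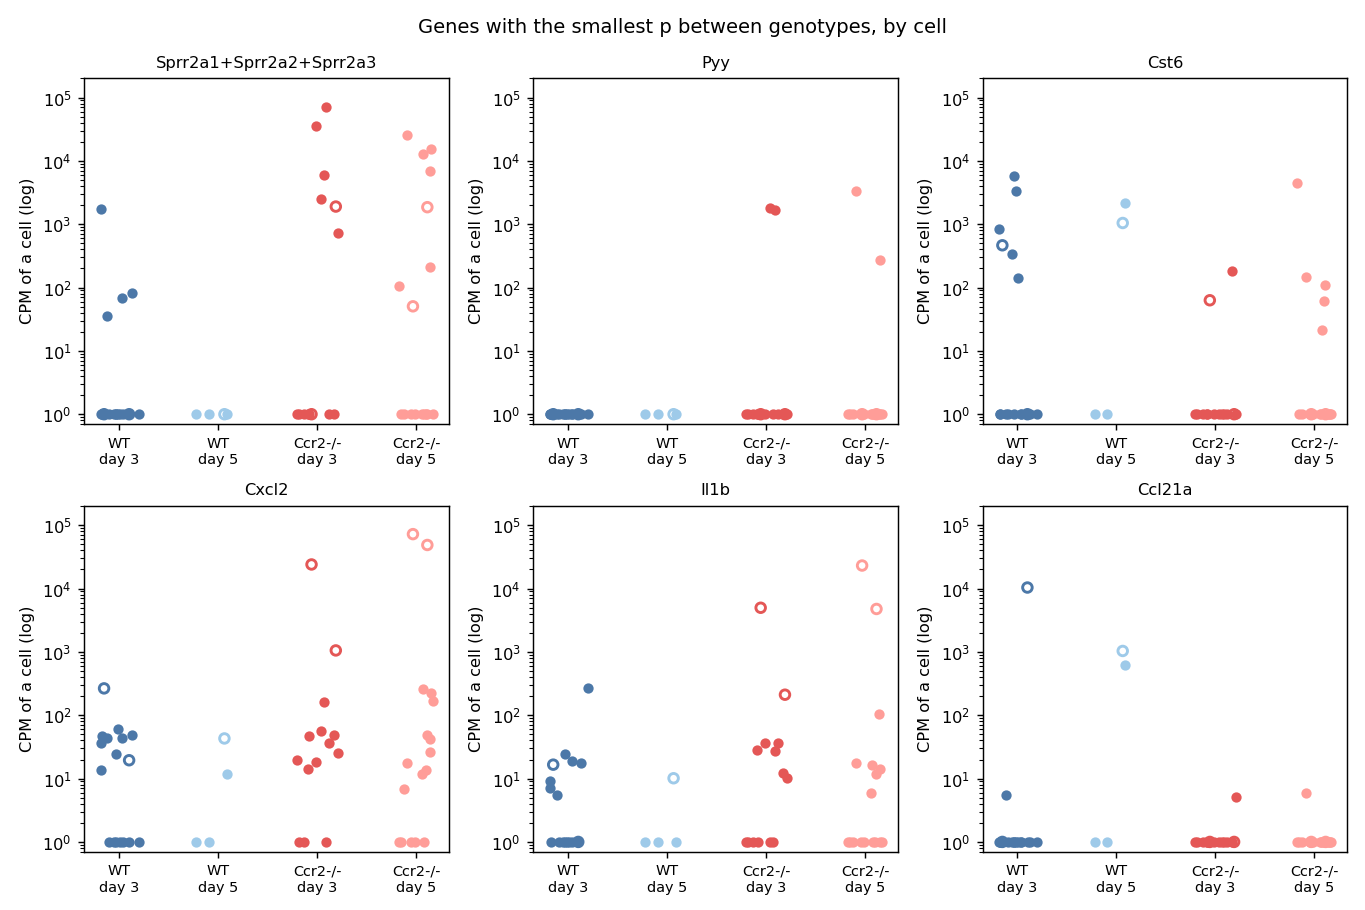
CPM of single keratinocytes (log axis, 0 drawn at 1) by pool for the summed Sprr2a genes, Pyy, Cst6, Cxcl2, Il1b and Ccl21a, with the 7 cells with neutrophil or endothelial genes as open circles. The highest Cxcl2 and Il1b values in the Ccr2-/- pools belong to open circles, whereas the highest Sprr2a and Pyy values belong to filled ones. Il1b was part of the rule for the open circles.

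By list, edgeR with all members gave signs between genotypes but no calls. Of 15 glycolysis and hypoxia genes tested, 14 had a higher sign in Ccr2-/- (median log2 difference of 0.67). The enzyme genes Gapdh (460, 429, 829 and 875 CPM) and Pgk1 (168, 72.5, 226 and 278 CPM) were highest in the Ccr2-/- pools, and none of the 15 passed. Of 13 basal genes 10 had a higher sign (median 0.72, with the rule's own keratins among them), of 10 spinous genes 2 did (median -1.56), and of 15 interferon response genes 10 did (median 0.73). Of 13 junction genes 9 had a higher sign (median 0.07), of 20 cytokine receptor genes 12 (median 0.44), and of 10 sebaceous genes 5 (median 0.02). Of 5 stress keratin and small proline-rich genes 4 had a higher sign (median 3.20). Beside these, all 8770 genes had 4480 higher signs. Without the 7 cells, edgeR called Sprr2a3 in the stress list, higher in Ccr2-/-. It also called Krt10, Krtdap and Dsg1a in the spinous list, each with a lower sign in Ccr2-/-. A single cell held 85.4% of the WT day 3 reads of the spinous list. On day 5 in this setting, Krt10 was higher in Ccr2-/- (796 CPM) than in WT (532 CPM). Krtdap was then nearly equal, with 1677 CPM in Ccr2-/- and 1733 CPM in WT. Dsg1a was lower in Ccr2-/- on both days. The glycolysis list then had 11 of 15 higher signs (median 1.01), the basal list 11 of 12 (0.87) and the interferon list 5 of 12 (-0.13), against 5141 of 8312 genes. In the same setting the stress keratin and small proline-rich list had 3 of 6 higher signs (median 1.22).

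The comparison of day 5 with day 3 rested, on the WT side, on 4 cells at day 5. By edgeR with genotype in the fit, 0 of 8770 genes were called (0%), 152 had an unadjusted p under 0.05 (1.73%), and DESeq2 called 1 (0.0114%), Dapl1, a death-associated protein-like gene of epithelia. Without the 7 cells edgeR called 2 of 8312 (0.0241%), Krt10 and Sprr2a2, both with a lower sign on day 5. In that setting Krt10 had 13902, 532, 488 and 796 CPM, so it was lower on day 5 in WT but higher in Ccr2-/-. Sprr2a2 then had 284, 0, 2667 and 2385.5 CPM, with little difference between the Ccr2-/- pools. With all members Dapl1 had 307, 5.06, 122 and 13.5 CPM. A single cell held 89.1% of its WT day 3 reads and 100% of its Ccr2-/- day 3 reads. Its log2 difference in edgeR was -4.40 with all members and 1.26 without the largest cell of each pool.

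Genes of cell division carried the leading day 5 signs. Of the 22 in the list, 15 had a higher sign on day 5 (median log2 difference of 1.22, against -0.07 for all genes), and 8 had an unadjusted p under 0.05, but none was called. Of all 8770 genes, 4047 had a higher sign on day 5. Cenpf, a kinetochore protein gene, had 10.7, 197, 4.88 and 92.2 CPM (log2 difference of 4.15 ± 0.81, edgeR, adjusted p of 1). Cdk1, the mitotic kinase, had 6.78, 55.7, 7.31 and 92.2 CPM, and Ube2c, which helps degrade cyclins, 27.7, 92.8, 0 and 130 CPM. A single cell held 58.1%, 78.4%, 48.6% and 29.8% of the list's reads, and that of WT day 5 was the member of 395381 reads that carried endothelial genes. After leaving out the 7 cells, 13 of 21 genes had a higher sign on day 5 (median 0.57, against -0.34 for all genes), as did 3095 of all 8312 genes. The difference of Cenpf was then 3.63, while that of the histone gene H2ax went from 2.78 to 0.48. On the lower side, the histidine ammonia-lyase gene Hal of the upper epidermis had a log2 difference of -5.39 ± 1.07 and the small heat shock protein gene Hspb1 of -2.79 ± 0.71 (SE, 4 pools, edgeR, adjusted p of 1 for both, and -5.84 and -2.65 without the 7 cells), with 98.7% and 90.1% of their WT day 3 reads in 1 cell each.

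The genotype difference was also set against that in the fibroblasts of the same pools. The cell type by genotype term passed for 42 of 17258 genes (0.243%), 15 higher and 27 lower in keratinocytes, by edgeR with pool as a block. Sprr2a2 and Cst6 were among them, but fibroblasts had at most 0.497 and 1.36 CPM of these, so their terms restate the keratinocyte difference and do not show that it was particular to keratinocytes. In all 42 genes 1 keratinocyte held 50% or more of the reads in some pool, 14 of the 42 were also called without the 7 cells, and limma voom called 0 (936 at an unadjusted p under 0.05). The fit again estimated an infinite prior df, and with pool as a block the 2 cell types share 1 residual, so the wider scatter of the keratinocyte sums could not be estimated apart.

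The 13 keratinocytes without a pool had a median of 6833 reads (3152 to 613388). They had 6970 to 44247 CPM of Krt5 and Krt14 together, for which the rule sets the minimum. None passed the suprabasal gate, 3 passed the follicle gate, 1 the stress gate and 1 the cycling gate, and 2 had a read of a Sprr2a gene. At the edge of the rule, the 3 members just inside had 5001, 5081 and 5145 CPM of Krt5 and Krt14, and the 3 barcodes just outside had 4735, 4678 and 4517 CPM.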

How the data were processed

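Cells of 4 pools were sequenced together by TAS-Seq on BD Rhapsody, after 10000 labelled cells were loaded. The deposited values are counts: the authors' cDNA matrix gives reads per gene and barcode, and the hashtag table reads per antibody and barcode. The authors trimmed with Cutadapt, aligned to mouse RNA of GRCm38.p6 with Bowtie2 and took as cells the barcodes above a knee-plot inflection. Reads are not molecules, and the background correction that the methods describe was not visible in the values. A further 9 hashtag columns were not used.

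Members and lists were chosen with earlier results of these data known. The pool was the hashtag with the highest count over its column total, at least 3 times the next, which was also the only treatment of doublets. Fibroblasts (Pdgfra of at least 100 CPM, Ptprc under 100) and leukocytes (the reverse) had Krt5 and Krt14 under 5000 CPM. Reads were summed per pool and tested with edgeR 4.0.16 (quasi-likelihood, TMM, filterByExpr, day and genotype, 1 residual df, Benjamini-Hochberg at 0.05) in R 4.3.3. DESeq2 1.42.0 and limma 3.58.1 were alternatives. Scripts were tested on simulated data. Shares were compared by exact permutation over 6 splits and carry Clopper-Pearson 95% intervals. Some comparisons were thinned to 10000 reads a cell. Named genes were the 10 with the smallest p in each direction, with the same sign in both strata and at least 10 CPM, the 20 with the highest ratio to other cells, and list members. Genes called only by an alternative were named after their values were seen, as were Krt2 and the sum of sebaceous genes. Positions are from GENCODE M21 and promoters from RefSeq. Flg2, Rptn, Lce1a1, Lce1c, Lce3c, Sprr2h, Sprr4, Defb14, Il36b, Il1f10 and Atoh1 were not analysed here.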

Additional observations from a re-analysis of the deposited data

Results flagged for a closer look

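A test of the difference between keratinocytes and fibroblasts in their response to genotype passed for 42 genes. The 10 with the smallest p had these log2 terms (keratinocytes minus fibroblasts, edgeR). Higher terms were 5.92 for Sprr2a2, 7.02 for Sprr2a3, 4.22 for Cxcl2, 2.26 for the surface antigen gene Ly6a and 4.61 for the serine protease gene Htra1. Lower terms were -8.28 for Ccl21a, -8.87 for Cldn5, -6.32 for the endothelial diaphragm gene Plvap, -2.15 for the mesenchymal filament gene Vim and -6.95 for Mt4, the metallothionein of stratified epithelia. Of the 42 genes, 26 had a higher mean level in fibroblasts than in keratinocytes. Vim had 211, 1132, 91.4 and 114 CPM in keratinocytes and at least 4643 CPM in every fibroblast pool. Mt4 had 638, 57.4, 0 and 41.3 CPM in keratinocytes and at most 0.704 CPM in fibroblasts. Without the 7 cells that carried neutrophil or endothelial genes, Sprr2a2, Sprr2a3, Vim, Ly6a and Mt4 were still called. Their terms were then 5.51, 6.52, -1.09, 1.68 and -6.59, and Vim was close to the threshold (edgeR, adjusted p = 0.048). The other 5 were not called, with terms of -4.53 for Ccl21a, 0.31 for Cxcl2, -7.38 for Cldn5, -3.06 for Plvap and 3.91 for Htra1. A lost call alone does not show that a term rests on these cells. Sprr2a2, Sprr2a3 and Mt4 were near 0 in fibroblasts, so their terms restate the keratinocyte difference.

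Outside the comparisons, 13 barcodes met the rule for keratinocytes but carried no usable hashtag, and 2 of them had Sprr2a reads.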

How the results depend on the processing

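No paired analysis was possible because the pools carry no replicate numbers beyond genotype and day, both of which were in the fit. The count of 0 genes between genotypes became 5 at a hashtag ratio of 10, 3 with Ptprc and Pdgfra under 20 CPM, 4 with a minimum of 10 hashtag reads, 3 at a mitochondrial limit of 10%, 36 with no filter and 22 by DESeq2. Chosen after the data were seen, leaving out the largest cell of each pool gave 51 and leaving out the 7 cells gave 11. Leaving out each pool gave 0 to 12 (9 without WT day 3 and 12 without WT day 5). The count of 0 between days became 11 with no filter, 1 by DESeq2, 36 without the largest cells and 2 without the 7 cells. The 42 calls against fibroblasts became 22 without the largest cells, 19 without the 7 cells and 0 by limma voom, and 19 to 243 without each pool (243 without WT day 3, 19 without Ccr2-/- day 5). The prior df was infinite in the fits with no filter, without the largest cells and without the 7 cells. For the other settings the cause was not tested.

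Signs turned in few cases. The share of keratinocytes differed by 0.0854 points at a keratin threshold of 20000 CPM, and the follicle gate by 0.630 points at 2 times its threshold. Cxcl2 had -0.26 (log2) without the cells at 1000 CPM of S100a8 or Il1b. Between days, leaving out each pool gave -3.74 to 11.16 for Cldn5, -3.29 to 10.49 for Mmrn1 and -1.57 to 5.16 for Cst6, each lowest without WT day 5, and Dapl1 had 1.26 without the largest cells. Against fibroblasts, Srgn had -0.0856 without the 7 cells, and leaving out each pool gave -17.06 to 1.10 for Sox18 and -0.21 to 6.56 for Lpl, with the turned sign without WT day 5. At 20000 CPM no gene fit could be made, because WT day 5 had no cell. Of 90 list genes of at least 100 CPM, 75 moved by less than the SD over pools when cells were averaged in place of summing, and 21 moved by more than 1.5 times. With 4 cells in WT day 5, depth there limits every comparison.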
